A study of Homo sapiens with 6 samples.

Results

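The 4 Janus kinases JAK1, JAK2, JAK3 and TYK2, the transcription factors STAT3, STAT5A, STAT5B and STAT6, and the feedback inhibitors SOCS1 and SOCS3 were followed in SU-DHL-2 cells with and without IL-17A. They were chosen by gene name, as every array probe whose RefSeq accession belonged to one of the 10 genes, out of 19740 genes that could be named on the array. All 10 genes had a tested probe, with 12 probes in all, because JAK3 and STAT3 had more than 1. SU-DHL-2 is an established human cell line from a diffuse large B-cell lymphoma (DLBCL). The IL-17A group was 3 samples cultured with recombinant IL-17A at 200 pg/ml for 72 h, and the control group was 3 samples kept for 72 h without it. RNA of each sample was labeled with Cy3 and read on 1 Agilent 1-colour array. The labels describe the treatment as in vivo, whereas the methods describe a culture, and a single cell line at 1 dose and 1 time limits what the groups stand for. Nothing in the labels says that the samples of a group came from separate cultures, so p-values measure the spread between these samples, which may be technical.

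Janus kinases sit on the inner side of cytokine receptors and become active when a cytokine joins the receptor chains. They then phosphorylate STAT proteins, which pair up, enter the nucleus and switch on genes, among them those of the SOCS proteins, which block the kinases or receptors in turn. Because SOCS transcripts follow STAT activity, they are often read as a trace of it. In B cells, IL-6 and IL-10 signal mainly through STAT3, IL-4 through STAT6, and IL-2 and IL-21 through receptors that use JAK1 and JAK3. The IL-17 receptor itself does not use a Janus kinase. The comparison asked whether IL-17A altered the transcripts of this pathway. Phosphorylation, by which JAK and STAT proteins are switched on, was not measured on the arrays.

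Between 23570 and 24077 probes were detected per array, no spot was saturated, and the lowest log2 signal that counted as well above background was 1.86 to 2.11. The array headers placed IL-17A replicate 1 in the same scan as the 3 controls and IL-17A replicates 2 and 3 in another, so that scan and treatment overlap in part. Of the B cell markers, 10 of 10 were detected, with HLA-DRA and CD79A among the brightest. Of the T and NK cell markers, 8 of 10 were detected, with CD3G, CD3D and CD8A brightest and CD5 and KLRD1 not detected, and their sum was 237 to 260 with IL-17A and 245 to 259 in controls. CD14 was the only monocyte marker of 8 that was tested, and COL1A1, ACTA2 and PDGFRB the only mesenchymal markers of 8. The summed signals were 31.9 to 34.8 with IL-17A and 31.6 to 37.3 in controls for the monocyte list, and 29.7 to 33 and 26.5 to 33.8 for the mesenchymal list. CD3E, at -0.46 on the log2 scale (adjusted p = 0.0401, limma), was the only marker called. Other T and NK markers differed in both directions without a call, among them CD2 at 0.51 (adjusted p = 0.0539) and CD8A at -0.51 (adjusted p = 0.068), and the part of these markers in the results was not tested.

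Of the 10 genes, STAT5A alone changed at an adjusted p under 0.05, and it was 17% higher with IL-17A. Over all 14747 named genes tested, 7.85% passed that threshold, 4.37% higher and 3.48% lower with IL-17A, so 1 of 10 was near the share of the whole array. None of the 10 reached a fold change of 1.5 with an unadjusted p under 0.05, which 1.92% of all genes did. Without adjustment, STAT5A, STAT5B and SOCS1 had a p under 0.05, 3 of 10 against 31.8% of all genes. The same 3 genes did not overlap between the groups, against 40.7% of all genes. At the brightest probe the difference was above 0 for 8 of 10 genes, all JAKs and STATs, and below 0 for both SOCS genes. The median log2 fold change was 0.12 against 0.00 over all genes, of which 50.9% were above 0. With the mean over the probes of a gene, 7 of 10 were above 0. In this fit, which does not account for scan, the 95% interval lay wholly between 1.5-fold lower and 1.5-fold higher for 9 of the 10 genes. SOCS3 was the exception. All tests were limma with Benjamini-Hochberg adjustment over the 23945 probes tested, and values are quantile normalized log2 signals.

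**Figure D1:**
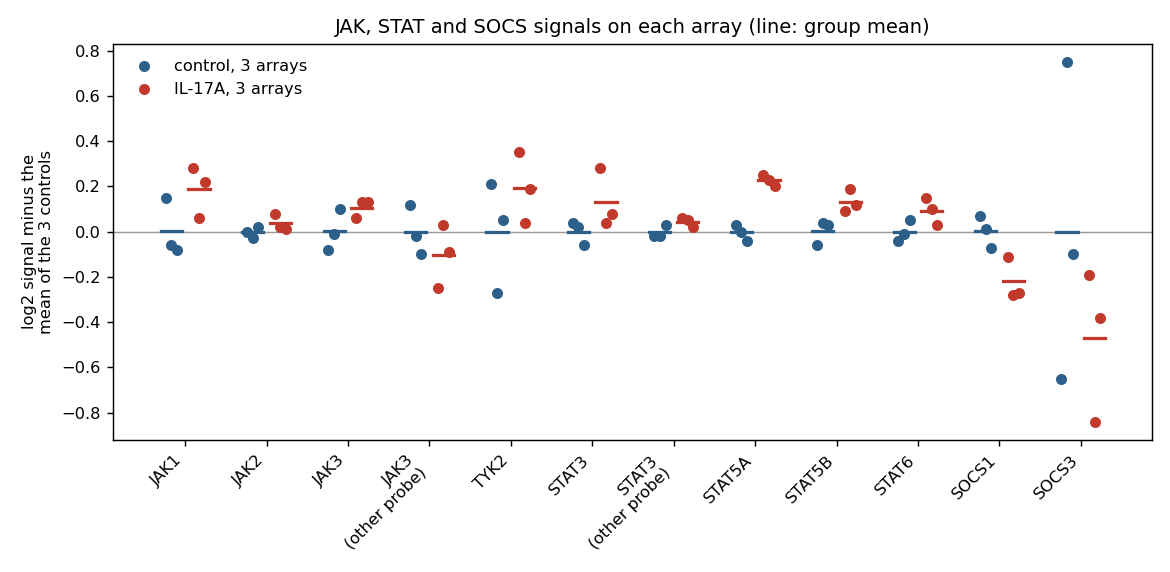
Log2 signal of each probe on each of the 6 arrays (y axis), as the distance from the mean of the 3 control arrays, with a line at the mean of each group. The STAT5A, STAT5B and SOCS1 arrays fall into groups that do not overlap, and the 3 SOCS3 controls spread from 1.94 to 3.34 on the log2 scale.

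JAK1 pairs with other Janus kinases on most receptors of the IL-2, IL-6 and interferon families. The JAK1 probe gave log2 signals of 9.38, 9.16 and 9.32 with IL-17A and 9.25, 9.04 and 9.02 in controls. The groups overlapped, because IL-17A replicate 2 lay below control replicate 1. The log2 fold change was 0.19 (SE 0.09, 95% interval -0.03 to 0.41, adjusted p = 0.212, limma).

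The kinase JAK2 serves the receptors of erythropoietin, interferon gamma and, with JAK1, the IL-6 family. The signals of JAK2 on the log2 scale were 7.55, 7.49 and 7.48 with IL-17A and 7.47, 7.44 and 7.49 in controls. The 6 arrays lay within 0.11 of each other, and the groups overlapped. JAK2 had a log2 fold change of 0.04 (SE 0.04, 95% interval -0.06 to 0.13, adjusted p = 0.542, limma), so that the interval ended at 10% higher on the linear scale.

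JAK3 is used by receptors that hold the common gamma chain, and loss of it impairs lymphocyte development. At its brighter probe the log2 signal was 8.94, 9.01 and 9.01 with IL-17A and 8.80, 8.87 and 8.98 in controls, and control replicate 3 lay above IL-17A replicate 1. At the other JAK3 probe it was 4.07, 4.35 and 4.23 with IL-17A and 4.44, 4.30 and 4.22 in controls, again with overlap. The log2 fold changes were 0.10 (SE 0.06, adjusted p = 0.28, limma) and -0.10 (SE 0.09, adjusted p = 0.478, limma). The sign for JAK3 therefore depended on the probe, and the mean over both probes was 0.00 (adjusted p = 0.994).

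TYK2 serves the receptors of type I interferons, IL-10 and IL-12. TYK2 gave log2 signals of 4.12, 3.81 and 3.96 with IL-17A and 3.98, 3.50 and 3.82 in controls, with overlap. Control replicate 2 was the lowest of the 6 arrays. The log2 fold change of 0.19 (SE 0.15, 95% interval -0.17 to 0.56, adjusted p = 0.401, limma) was 0.06 without that array. None of the 4 kinases was called, and at their brightest probes the log2 fold changes ran from 0.04 to 0.19.

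STAT3 carries signals of IL-6 and IL-10 and is an oncogenic factor in DLBCL of the activated B-cell type. At its brighter probe the log2 signal was 6.97, 6.73 and 6.77 with IL-17A and 6.73, 6.71 and 6.63 in controls. IL-17A replicate 1 stood above the other arrays, while IL-17A replicate 2 and control replicate 1 both read 6.73. The log2 fold change was 0.13 (SE 0.08, 95% interval -0.06 to 0.32, adjusted p = 0.287, limma), and it was 0.06 without IL-17A replicate 1. The other STAT3 probe was printed as 10 spots on each array, which gave 5.55, 5.54 and 5.51 with IL-17A and 5.47, 5.47 and 5.52 in controls, with overlap. Its log2 fold change was 0.05 (SE 0.04, 95% interval -0.04 to 0.14, adjusted p = 0.413, limma).

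The repeated STAT3 spots showed how finely 1 array measured a transcript. Before normalization between arrays, the 10 spots had an SD of 0.06 to 0.12 within an array, and their means ran from 5.41 to 5.58 over the 6 arrays. The highest mean, 5.58, was control replicate 1 and the lowest, 5.41, control replicate 2.

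**Figure D2:**
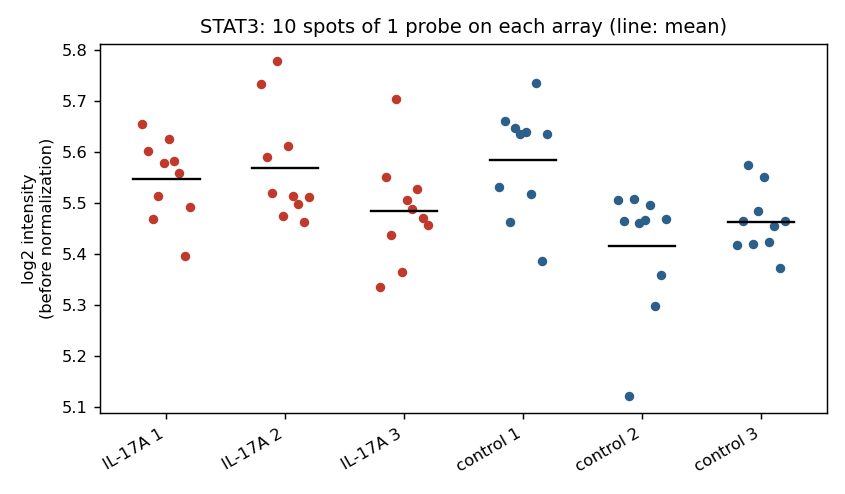
Log2 intensity of the 10 spots of 1 STAT3 probe on each of the 6 arrays before normalization between arrays (y axis), with a line at the mean of the 10. The spots of every array overlap those of every other array, and the lowest spot, 5.12, is on control replicate 2.

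STAT5A, together with its close paralog STAT5B, carries signals of IL-2, IL-7, IL-15 and GM-CSF. The STAT5A probe read 7.18, 7.16 and 7.13 (log2) with IL-17A and 6.96, 6.93 and 6.89 in controls. All 3 IL-17A arrays lay above all 3 control arrays, and within each group the arrays were within 0.07 of each other. STAT5A was upregulated, with a mean of 7.15 ± 0.03 (SD, n = 3) against 6.93 ± 0.03 and a log2 fold change of 0.23 (SE 0.04, 95% interval 0.13 to 0.32, adjusted p = 0.0363, limma). The interval corresponds to a fold change of 1.1 to 1.25. With scan as a block, which leaves IL-17A replicate 1 against the 3 controls, STAT5A was not called (0.25, adjusted p = 0.118, limma). Normexp background correction added an offset of 50 to every signal, which narrows log2 differences, most for dim signals. With it STAT5A had a log2 fold change of 0.12 and was not called either (adjusted p = 0.1, limma). Leaving out any 1 of the 6 arrays kept it between 0.21 and 0.24 but ended the call, at an adjusted p of 0.0588 to 0.145.

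STAT5B lies beside STAT5A and STAT3 on chromosome 17 and is transcribed from its own start. Its log2 signal was 11.31, 11.41 and 11.34 with IL-17A and 11.16, 11.26 and 11.25 in controls. The groups did not overlap, and IL-17A replicate 1 lay 0.05 above control replicate 2. The log2 fold change was 0.13 (SE 0.05, 95% interval 0.01 to 0.25, unadjusted p = 0.0396, adjusted p = 0.141, limma), which was not called. Whether the STAT5A and STAT5B probes also capture the transcript of the paralog was not tested.

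STAT6 is the factor of IL-4 and IL-13 signaling and drives class switching to IgE in B cells. On the log2 scale STAT6 measured 12.95, 12.90 and 12.83 with IL-17A and 12.76, 12.79 and 12.85 in controls. Control replicate 3 lay above IL-17A replicate 3, so the groups overlapped. STAT6 had a log2 fold change of 0.09 (SE 0.05, 95% interval -0.03 to 0.21, adjusted p = 0.248, limma).

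SOCS1 binds activated Janus kinases and blocks them, and it is often mutated in lymphomas of B cells. SOCS1 gave log2 signals of 8.75, 8.58 and 8.59 with IL-17A and 8.93, 8.87 and 8.79 in controls. All 3 IL-17A arrays lay below all 3 controls, with IL-17A replicate 1 only 0.04 below control replicate 3. SOCS1 had a log2 fold change of -0.22 (SE 0.07, 95% interval -0.39 to -0.06, unadjusted p = 0.0168, adjusted p = 0.0902, limma), which is 14.2% lower and was not called. With scan as a block it was -0.11 (unadjusted p = 0.182). With a variance trend in the same fit it was called (adjusted p = 0.041).

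SOCS3 blocks signaling through gp130, the shared chain of the IL-6 family, and is a target of STAT3. Its log2 signal was 2.40, 1.75 and 2.21 with IL-17A and 1.94, 3.34 and 2.49 in controls. It was detected on IL-17A replicate 1 and on control replicates 2 and 3, and was not well above background on the other 3 arrays. The log2 fold change was -0.47 (SE 0.38, 95% interval -1.41 to 0.47, adjusted p = 0.436, limma). Without control replicate 2, the highest array, it was -0.10. The interval reached from 0.376-fold to 1.39-fold, so a rise of 1.5-fold lay outside it while a fall of that size lay inside. Because it rests partly on signals not well above background, it cannot exclude a rise of that size.

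**Figure D3:**
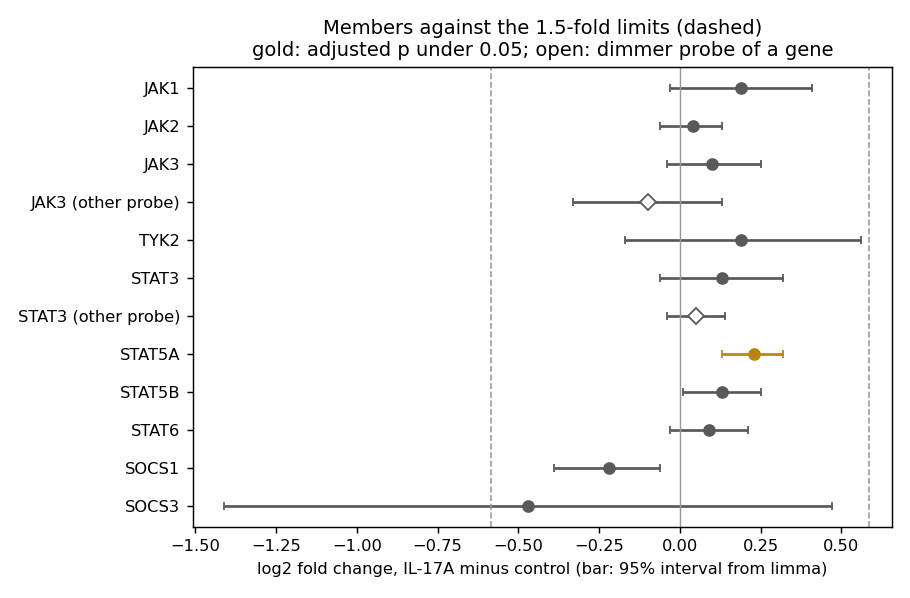
Log2 fold change of IL-17A minus control for the 12 probes (points, x axis) with the 95% interval from limma (bars), and dashed lines at a fold change of 1.5 in either direction. In this fit, which does not account for scan, only the SOCS3 interval, -1.41 to 0.47, crosses a dashed line. The STAT5A, STAT5B and SOCS1 intervals leave out 0.

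STAT dimers bind paired TTC and GAA triplets, and a spacer of 3 bases between them is common to most STATs, while STAT6 prefers a spacer of 4. The promoters of the 10 genes were searched for TTCNNNGAA and TTCNNNNGAA, each of which reads the same on both strands and cannot match at the same triplets as the other. RefSeq (GRCh38.p14) gave 18 windows for the 10 genes, each from 250 bases before to 50 bases after a transcription start. None of the 18 windows held TTCNNNGAA, which 7.66% of all 35116 windows did. TTCNNNNGAA stood in 1 of 18 windows, at STAT5A, against 6.44% of all windows. The promoter of CISH, a SOCS family member induced by STAT5, held TTCNNNGAA at 4 places, 241, 230, 129 and 112 bases before the start. Windows of BCL6, FCER2, IL10RB, IL15RA, IL3RA and LIFR, from the pathway lists described later, held TTCNNNGAA too. In those lists TTCNNNNGAA stood in windows of FCER2, IL10 and PRDM1. The share of windows with a match was not computed for these lists, so they give no contrast with the 10 genes. The 250 bases before the start are shown for CISH as a SOCS family promoter with matches, for both SOCS genes, which are known STAT targets, and for STAT5A, the called gene, with matches in capitals. CISH is read from chr3:50611775-50612024 on the minus strand, SOCS1 from chr16:11256205-11256454 on the minus strand, SOCS3 (the first of 2 windows) from chr17:78360926-78361175 on the minus strand, and STAT5A (the first of 3 windows) from chr17:42287189-42287438 on the plus strand.
CISH: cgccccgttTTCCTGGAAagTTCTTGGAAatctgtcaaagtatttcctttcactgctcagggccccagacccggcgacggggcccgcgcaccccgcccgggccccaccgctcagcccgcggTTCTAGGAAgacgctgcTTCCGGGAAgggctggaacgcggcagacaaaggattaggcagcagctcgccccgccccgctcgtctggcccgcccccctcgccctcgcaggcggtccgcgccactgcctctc
SOCS1: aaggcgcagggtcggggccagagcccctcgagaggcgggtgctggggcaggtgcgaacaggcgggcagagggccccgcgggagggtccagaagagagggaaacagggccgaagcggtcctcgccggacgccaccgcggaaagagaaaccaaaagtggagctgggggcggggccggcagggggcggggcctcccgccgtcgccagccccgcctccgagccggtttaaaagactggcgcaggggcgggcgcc
SOCS3: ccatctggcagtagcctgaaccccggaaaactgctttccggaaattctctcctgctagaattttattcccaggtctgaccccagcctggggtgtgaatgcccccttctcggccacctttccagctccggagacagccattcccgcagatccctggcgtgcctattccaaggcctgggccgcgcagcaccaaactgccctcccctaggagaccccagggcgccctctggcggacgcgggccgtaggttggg
STAT5A: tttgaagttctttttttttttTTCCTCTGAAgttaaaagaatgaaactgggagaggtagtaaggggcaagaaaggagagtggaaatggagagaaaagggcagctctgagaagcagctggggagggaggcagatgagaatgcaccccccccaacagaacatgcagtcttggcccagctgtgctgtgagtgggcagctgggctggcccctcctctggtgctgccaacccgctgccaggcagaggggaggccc

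The STAT5A match lies 229 bases before that start, and the other 2 STAT5A windows held none. CISH itself had a log2 signal of 6.36, 6.43 and 6.38 with IL-17A and 6.23, 6.32 and 6.32 in controls. The groups did not overlap, and the log2 fold change was 0.10 (SE 0.04, unadjusted p = 0.0687, adjusted p = 0.191, limma), which was not called. A match is a description of the letters in these windows, and sites elsewhere near the genes were not searched.

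With scan as a block, which leaves the comparison to IL-17A replicate 1 against the 3 controls of its scan, none of the 10 genes was called. The log2 fold changes in that fit were 0.28 for JAK1, 0.08 for JAK2, 0.06 for JAK3 and 0.35 for TYK2. For the STATs they were 0.28 for STAT3, 0.25 for STAT5A, 0.09 for STAT5B and 0.15 for STAT6, and for the inhibitors -0.11 for SOCS1 and -0.19 for SOCS3. All 10 signs were those of the 6-array fit, larger than over all arrays for JAK1, JAK2, TYK2, STAT3, STAT5A and STAT6 and smaller for the other 4 genes. The IL-17A arm there is the single array that read highest for STAT3, and its spread is taken from the other arrays. A fit to the 4 arrays of the shared scan alone gave the same 0.28 for STAT3 (adjusted p = 0.197, limma) and 0.25 for STAT5A (adjusted p = 0.197), and called none of the 10 genes.

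**Figure D4:**
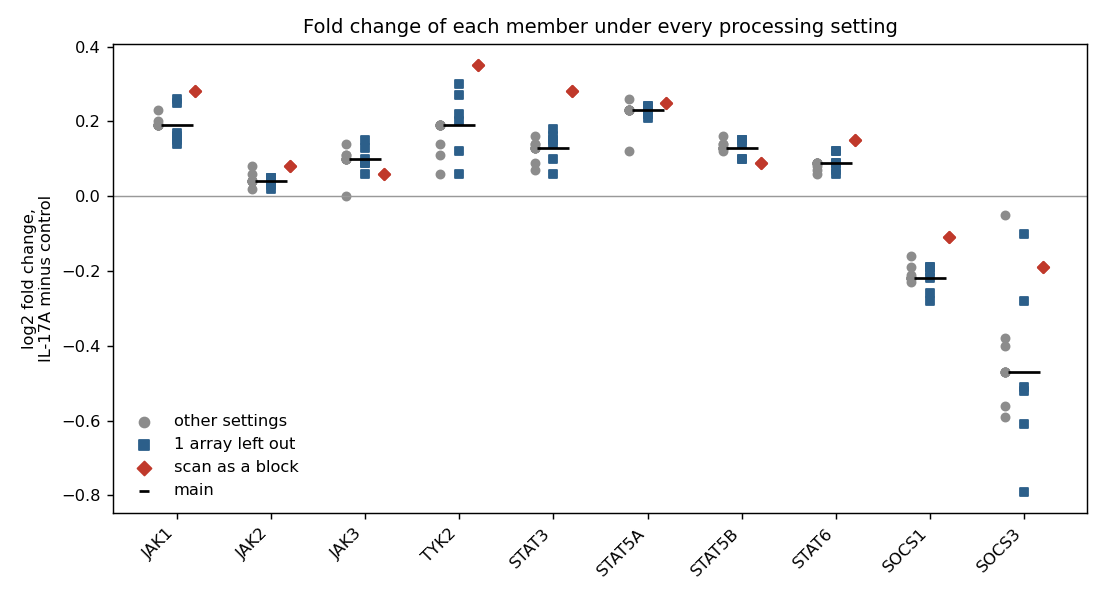
Log2 fold change of each of the 10 genes (y axis) in the reported fit (black bars), with 1 array left out (squares), with scan as a block (diamonds) and under the other processing settings (circles). STAT5A stays between 0.12 and 0.26 and SOCS1 between -0.28 and -0.11, while SOCS3 runs from -0.79 to -0.05. The 0.12 of STAT5A and the -0.05 of SOCS3 are from normexp with an offset of 50, which narrows differences of dim signals.

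The rest of the pathway was described by 62 genes in 5 lists, of which 57 were tested. In these lists 6 genes were called higher with IL-17A and 0 lower, 10.5% against the 7.85% of all genes. Of the 6, IL2RB and CCND2 were detected on IL-17A arrays only and so passed the detection filter through the group where they are high. Without them 4 of 55 were called, or 7.27%, but genes that passed in this way were not taken out of the 7.85%. An unadjusted p under 0.05 was found for 20 of the 57, or 35.1% against 31.8% of all genes, with a median log2 fold change of 0.05. With scan as a block 1 of them was called, and with each array left out 0 to 5. Of the cytokine receptor chains, 20 of 22 were tested, and IL6R and LIFR were not. Of the 20 tested, 2 (10%) were called higher against 4.37% of all genes. The 2 include IL2RB, which passed the detection filter through the IL-17A group only. IL2RB, the beta chain of the IL-2 and IL-15 receptors, had a log2 signal of 3.10, 3.51 and 3.24 with IL-17A and 0.40, 0.88 and 0.66 in controls. No control array was well above background, so IL2RB was at least 2.46-fold higher (adjusted p = 0.0149, limma), with means of 3.28 and 0.64 as measured. That p rests on control values below the background limit. IL2RA, the alpha chain that raises the affinity for IL-2, was 7.31, 7.38 and 7.36 with IL-17A and 6.89, 6.90 and 7.06 in controls, a log2 fold change of 0.40 (SE 0.06, adjusted p = 0.0327, limma). With 1 array left out IL2RA was 0.37 to 0.46 and its call did not always hold (adjusted p of 0.0477 to 0.135, limma). IL2RA did not overlap between the groups, which held for 40.7% of all genes. For IL2RB the lack of overlap followed from its detection on IL-17A arrays only. The beta chain binds JAK1 and leads to STAT5 activation, whereas the alpha chain binds no Janus kinase. IL21R had a log2 fold change of 0.32 (adjusted p = 0.0574) and OSMR, a receptor chain of the IL-6 family, -0.60 (adjusted p = 0.122). For IL6ST, which encodes gp130, it was -0.08 (adjusted p = 0.38).

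Of the other STATs, STAT2 had a log2 fold change of 0.26 (adjusted p = 0.0733), without overlap and not called, and STAT4 was not tested. Of the other SOCS family genes, 5 of 6 were tested and none was called, and SOCS6 was not tested. SOCS2, a STAT5 target that restrains growth hormone signaling, had 7.57, 8.24 and 8.07 with IL-17A and 8.55, 8.60 and 8.38 in controls. Its log2 fold change was -0.55 (SE 0.18, adjusted p = 0.109, limma), with all IL-17A arrays below all controls and IL-17A replicate 1 lowest. It was -0.36 without IL-17A replicate 1 and -0.94 with scan as a block. SOCS4 had 0.17 (adjusted p = 0.117) and SOCS5 0.02 (adjusted p = 0.856).

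Of 11 other inhibitors, 1 was called, 9.09% against 7.85% of all genes. The called gene was PTPN2, a phosphatase that removes phosphate from JAK1, JAK3 and STATs. Its log2 signal was 9.72, 9.71 and 9.77 with IL-17A and 9.57, 9.49 and 9.54 in controls, a log2 fold change of 0.20 (SE 0.04, adjusted p = 0.047, limma). With 1 array left out PTPN2 was 0.18 to 0.21 and not called (adjusted p of 0.0736 to 0.171, limma). The phosphatase PTPN1 had -0.13 (adjusted p = 0.0925), PTPRC, which encodes CD45, 0.14 (adjusted p = 0.0965), and the adaptor SH2B3 -0.11 (adjusted p = 0.173). The list had a median of -0.02.

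Of 20 genes known as targets of STAT3, STAT5 or STAT6, 19 were tested, CCL22 was not, and 3 (15.8%) were called higher against 4.37% of all genes. Of the 3, CCND2 was detected on IL-17A arrays only and so passed the detection filter through the group where it is high. The cyclin gene CCND2 had a log2 signal of 2.88, 2.82 and 2.80 with IL-17A and 0.00, 0.46 and 0.00 in controls, where no array was well above background, and was at least 1.8-fold higher (adjusted p = 0.0109, limma). Those control values are at or near the floor of the signals, and the p rests on them. PRDM1, the plasma cell regulator also called BLIMP1, had a log2 fold change of 0.38 (SE 0.06, adjusted p = 0.0327, limma), and BCL3, an atypical member of the IkB family, 0.31 (SE 0.05, adjusted p = 0.0327, limma). With 1 array left out PRDM1 was 0.35 to 0.44 (adjusted p of 0.0477 to 0.135, limma). BCL3 was then 0.28 to 0.34 (adjusted p of 0.0489 to 0.135, limma), so neither call held in all of these fits. OSM, a cytokine of the IL-6 family, had 0.33 (adjusted p = 0.0523). These genes have regulators other than STATs, and the part of STATs in their values was not tested. The list as a whole had a median of 0.14, with 15 of 19 (78.9%) above 0 against 50.9% of all genes. That list includes CCND2 and was chosen with earlier results of these data known.

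**Figure D5:**
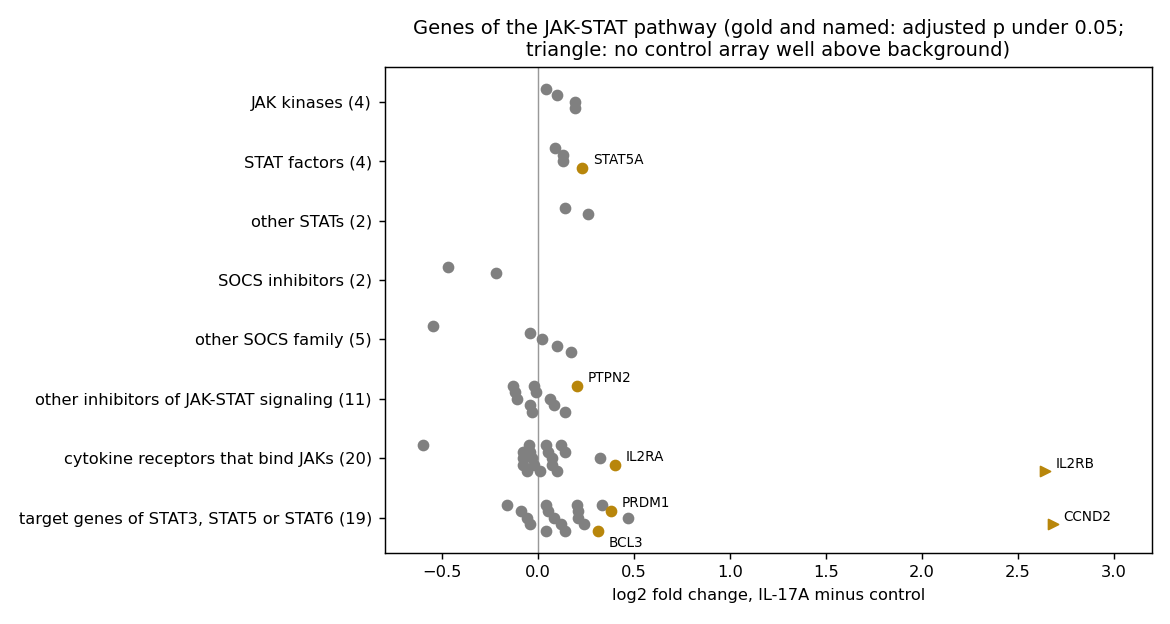
Log2 fold change of IL-17A minus control (x axis) for every tested gene of the 3 groups of JAK, STAT and SOCS genes and the 5 pathway lists, with the number tested in brackets. The 7 named genes were called, all higher with IL-17A, and triangles mark IL2RB and CCND2 at their measured values, 2.64 and 2.68, where no control array was well above background.

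Across the 6 arrays, the genes whose signals followed the brighter STAT3 probe most closely, of 14717 genes compared, were EIF3F (Pearson r = 0.995), ANKRD27 (r = 0.994) and GPR160 (r = 0.994). For SOCS3 they were KIR2DS4 (r = 0.981), LINC01907 (r = 0.980) and SHROOM4 (r = 0.962). SOCS3 was detected on 3 of the 6 arrays, so its profile rests partly on signals not well above background. The 6 points are single arrays that share their normalization, and with so many genes compared the closest ones correlate highly by selection. None of the 6 genes belonged to the JAK-STAT lists.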

How the data were processed

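RNA of SU-DHL-2 samples (3 with IL-17A, 3 controls, grouped by title) was hybridized to 1-colour Agilent arrays. The authors' deposited files give a background-subtracted intensity per spot from Agilent Feature Extraction 11.0.1.1, without normalization between arrays. The authors also deposited log2 values quantile normalized in GeneSpring, which served as an alternative. Control spots and 61 values marked non-uniform were left out, intensities below 1 were set to 1, log2 values were averaged per probe, and arrays were quantile normalized. The flag Detected of the methods was read as signals marked both significantly positive and well above background, and 23945 of 34127 probes detected on at least 3 of 6 arrays were tested. Probes were named by RefSeq accession, and the brightest tested probe stood for a gene. The number of arrays limits the precision.

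Groups were compared by limma 3.58.1 (R 4.3.3) in a two-sided test with no covariates and with Benjamini-Hochberg adjustment. An exact permutation test of 3 against 3 cannot go below 0.1. For "at least N-fold", the lower group was raised to the faintest well-above-background signal of each array. The procedure was tested on simulated data. Named genes were the 10 genes with every probe, up to 4 genes per pathway list with the lowest unadjusted p and those not tested, the 3 closest profiles to STAT3 and SOCS3, and the 3 brightest and the undetected markers. PAX5 was named as the dimmest B cell marker. Values of 2 list genes are not reported here. The genes and lists were chosen with earlier results of these data known. Alternatives covered normalization, background, detection filters, the floor, the variance model, the methods' test, replicate and scan blocks, the choice of probe, and leaving out single arrays. The normexp background correction used an offset of 50. Scan stood for the inferred slide, which the headers do not name.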

Additional observations from a re-analysis of the deposited data

How the results depend on the processing

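Of 189 values of the 10 genes over the alternatives, 176 kept their direction and their side of the threshold. STAT5A was above 0, with an unadjusted p under 0.05, in all 19 alternatives, and lost its call in 11, with adjusted p-values of 0.0167 to 0.197 over all of them. SOCS1 was below 0 in all 19, with an unadjusted p under 0.05 in 13. With the mean over its probes JAK3 turned from 0.10 to just below 0 (0.00 when rounded). SOCS3 had no value where detection on all 6 arrays was asked for.

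The number of the 10 genes called was 1 as reported, 0 without normalization, with normexp, with the replicate block, with scan as a block and within the shared scan, and 2 with a variance trend. It was 0 with each of the 6 arrays left out. No gene reached both the fold change and the unadjusted p in any alternative. Of the pathway genes, 6 were called as reported, 2 without normalization, 15 with a variance trend, 1 with the replicate block, 1 with scan as a block, 0 within the shared scan, 3 with the mean over probes, and 0 to 5 with each array left out. The cause was not tested.

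The replicate numbers did not pair the arrays: deviations of same-numbered arrays correlated at r = -0.09, 0.00 and -0.05, and the replicate block gave STAT5A 0.23 at an adjusted p of 0.124. Over all probes, 1818 were called as reported, 58.3% of them higher with IL-17A. There were 1370 at the 75th percentile (49.4% higher), 46 without normalization (45.7%), 2486 with detection on all arrays, 3846 with a variance trend, 1248 with the methods' test on its own, 4 with the replicate block, 48 with scan as a block (29.2%), 27 within the shared scan (29.6%), and 2 to 983 with each array left out. Signals near the background limit SOCS3.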
